A study of Mus musculus with 8 samples.

Results

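Mitosis and cytokinesis genes, the 55 genes whose products condense and separate the chromosomes and then divide the cell, were followed through hearts under pressure overload. They were taken by gene symbol from a table of 54532 genes, and all 55 were found once. RNA of mouse heart tissue (strain C57BL/6) was sequenced in 8 libraries, 2 in each of 4 groups. The groups were Piezo1-Cko hearts after TAC (Cko TAC), wild-type hearts after TAC (WT TAC), Piezo1-Cko hearts after sham surgery (Cko sham) and wild-type hearts after sham surgery (WT sham). TAC usually stands for transverse aortic constriction, a tie around the aortic arch that raises the pressure the left ventricle pumps against, and a sham operation leaves the tie out. Piezo1 is a cation channel opened by stretch of the membrane. The labels give no age, no time after surgery, no Cre line and no deleted exon for Piezo1-Cko, and they do not say that each library is a separate animal, so p-values measure the spread between libraries, which may be technical.

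A cell that enters mitosis switches on cyclin-dependent kinase 1 through cyclins A and B, condenses its chromosomes, builds a spindle, attaches each chromosome to it through a kinetochore and waits at a checkpoint until every kinetochore is attached. The anaphase-promoting complex (APC/C) then marks cyclin B and securin for destruction, the chromosomes part, and a contractile ring under the central spindle pinches the cell apart. Most of these genes are off in resting cells and are transcribed together in late S phase, G2 and M phase. In the adult mouse heart nearly all cardiomyocytes have left the cell cycle, while fibroblasts, endothelial cells and immune cells can still divide. In whole tissue a change in the number of dividing cells and a change in RNA per cell cannot be told apart.

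The deposited values are FPKM, fragment counts divided by gene length and by a library size that had been scaled between samples, so levels can be set beside each other between genes. Reads recovered from them came to between 15574769 and 17313084 per library. Piezo1 was at 5.24 and 3.89 FPKM in Cko TAC and 5.38 and 5.83 FPKM in WT TAC, against 3.83 and 3.23 FPKM in Cko sham and 2.35 and 3.09 FPKM in WT sham. The log2 change of Piezo1, Cko over WT, was -0.28 under TAC (adjusted p = 0.653) and 0.33 under sham (adjusted p = 0.774). The gene total thus does not check the genotype labels, and Cko below means the libraries labelled Piezo1-Cko. As to the labelled tissue, 8 cardiomyocyte markers summed to at least 14124 FPKM in every library. The 7 listed markers of germ cells and thymocytes (developing lymphocytes) summed to at most 1.5 FPKM in any library. Of these 7 markers, only Rag2 and Dntt were at 0 in all 8 libraries.

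Promoters are shown here because many genes of this kind share short sequence elements. The cell cycle homology region, with the letters TTTGAA or TTTAAA, is the element through which the DREAM and MuvB complexes hold such genes off in resting cells and activate them in G2, and CCAAT is the letter core bound by NF-Y. RefSeq promoter windows of GRCm38.p6, each of 300 bases that end 50 bases after the start, were available for 47 of the 55 genes. TTTGAA was present on either strand in 34 of the 47 windows (72.3%), against 20.2% of 27025 genes. Within 50 bases of the start it was found in 31 of 47 (66.0%), against 5.72% of all genes. TTTAAA was in 9 of 47 (19.1%), against 14.9%. CCAAT was in 35 of 47 (74.5%), against 41.1%, and at 2 or more places in 25 (53.2%), against 13.3%. Both a TTTGAA or TTTAAA and a CCAAT were in 31 of 47 (66.0%), against 12.2%. E2F-like letters were in 9 of 47 (19.1%), against 9.20%. For these the letters searched were TTGGCGC, and with it the variant TTCGCGC, and as the last variant TTCCCGC. The letters TATAAA were in 2 of 47 (4.26%), against 15.7%. Neither form of the homology region nor the NF-Y core was in 6 of 47 windows (12.8%), against 41.8% of all genes. Apart from Pttg1 these were Mad2l1, Melk, Ncaph, Nuf2 and Nusap1, all of them higher under TAC in the pooled comparison below. All matches given here describe letters and are neither binding sites nor causes.

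The 8 promoters printed here, in the direction of transcription, are those of 5 genes that were higher in every TAC library and of the 3 that were not. Capitals mark the letters of the homology region and of the NF-Y core named above, on either strand, so that CCAAT on the other strand reads ATTGG. The windows are, in order, Cdk1 at chr10:69352863-69353162 (minus strand), Ccnb2 at chr9:70421505-70421804 (minus strand), Cdc20 at chr4:118437294-118437593 (minus strand), Ube2c at chr2:164769679-164769978 (plus strand), Top2a at chr11:99024140-99024439 (minus strand), Cenpa at chr5:30666636-30666935 (plus strand), Cenpf at chr1:189688037-189688336 (minus strand) and Pttg1 at chr11:43425932-43426231 (minus strand).
Cdk1: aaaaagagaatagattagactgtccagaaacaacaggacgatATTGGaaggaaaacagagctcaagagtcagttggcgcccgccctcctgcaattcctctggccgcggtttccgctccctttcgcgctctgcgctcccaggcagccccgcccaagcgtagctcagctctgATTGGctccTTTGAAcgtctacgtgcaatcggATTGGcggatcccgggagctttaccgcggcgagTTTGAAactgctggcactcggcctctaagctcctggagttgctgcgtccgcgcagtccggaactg
Ccnb2: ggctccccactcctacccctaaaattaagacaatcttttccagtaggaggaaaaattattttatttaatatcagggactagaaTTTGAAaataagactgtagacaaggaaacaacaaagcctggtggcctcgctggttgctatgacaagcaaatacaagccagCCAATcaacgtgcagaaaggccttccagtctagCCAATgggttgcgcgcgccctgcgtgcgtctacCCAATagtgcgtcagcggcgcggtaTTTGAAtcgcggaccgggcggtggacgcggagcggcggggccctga
Cdc20: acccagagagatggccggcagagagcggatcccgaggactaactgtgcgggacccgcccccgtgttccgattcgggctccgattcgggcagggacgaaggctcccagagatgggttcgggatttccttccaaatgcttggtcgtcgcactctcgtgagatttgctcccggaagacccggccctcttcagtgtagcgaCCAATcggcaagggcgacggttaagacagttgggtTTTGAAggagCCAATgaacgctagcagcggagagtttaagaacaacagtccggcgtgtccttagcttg
Ube2c: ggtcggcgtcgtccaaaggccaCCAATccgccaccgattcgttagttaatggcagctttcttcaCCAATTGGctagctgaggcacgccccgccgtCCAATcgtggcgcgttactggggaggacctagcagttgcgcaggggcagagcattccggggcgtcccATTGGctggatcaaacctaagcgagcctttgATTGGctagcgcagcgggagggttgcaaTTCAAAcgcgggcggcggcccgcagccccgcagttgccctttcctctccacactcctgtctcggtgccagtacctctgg
Top2a: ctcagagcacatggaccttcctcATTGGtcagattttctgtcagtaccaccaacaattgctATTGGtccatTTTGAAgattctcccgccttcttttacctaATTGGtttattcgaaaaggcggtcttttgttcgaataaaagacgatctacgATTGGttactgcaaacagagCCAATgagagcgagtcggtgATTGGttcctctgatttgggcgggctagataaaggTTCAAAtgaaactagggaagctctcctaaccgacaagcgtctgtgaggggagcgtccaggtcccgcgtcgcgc
Cenpa: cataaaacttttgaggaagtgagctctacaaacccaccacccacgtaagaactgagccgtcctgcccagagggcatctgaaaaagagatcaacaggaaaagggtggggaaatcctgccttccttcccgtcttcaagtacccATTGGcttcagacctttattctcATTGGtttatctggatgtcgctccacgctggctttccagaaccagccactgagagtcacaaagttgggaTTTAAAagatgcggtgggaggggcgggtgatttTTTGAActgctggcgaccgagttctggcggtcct
Cenpf: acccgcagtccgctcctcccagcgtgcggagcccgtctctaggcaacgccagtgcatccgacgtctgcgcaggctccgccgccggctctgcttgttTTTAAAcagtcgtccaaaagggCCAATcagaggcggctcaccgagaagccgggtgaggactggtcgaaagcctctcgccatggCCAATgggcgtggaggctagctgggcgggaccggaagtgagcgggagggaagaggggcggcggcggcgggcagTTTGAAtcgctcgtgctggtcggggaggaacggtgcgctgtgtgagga
Pttg1: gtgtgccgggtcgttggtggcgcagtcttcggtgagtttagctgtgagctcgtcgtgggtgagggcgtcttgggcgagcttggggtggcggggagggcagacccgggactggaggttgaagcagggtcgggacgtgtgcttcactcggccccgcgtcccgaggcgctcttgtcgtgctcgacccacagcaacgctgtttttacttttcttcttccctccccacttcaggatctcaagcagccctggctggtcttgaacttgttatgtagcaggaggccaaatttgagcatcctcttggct
The windows of Cdk1, Ccnb2, Cdc20, Ube2c and Top2a each held TTTGAA within 50 bases of the start and at least 2 copies of CCAAT. In the Ube2c window CCAAT and ATTGG overlap once, and both were counted. Cenpa and Cenpf held both forms of the homology region and CCAAT too, and did not pass the test of TAC against sham. The Pttg1 window held none of the letters searched. That window lay inside the gene as annotated (chr11:43420250-43426251, minus strand), downstream of the annotated gene start. Sequence upstream of that start was not searched, so the promoter there is not described.

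In the pooled comparison of TAC with sham over both genotypes, 51 of the 54 genes that entered the fit were higher and 1 was lower at an adjusted p under 0.05 (limma on log2(FPKM + 0.5), Benjamini-Hochberg over 13930 genes, two-sided). Of all genes tested, 11.9% were higher and 13.5% lower. The log2 fold change (log2 change below) had a median of 1.67 over the 54 genes and 0.01 over all genes tested. In FPKM, 52 of the 55 genes had all 4 TAC libraries above all 4 sham libraries, as did 13.1% of all genes tested, and 1 had all 4 below, as did 14.6%. The gene that fell was Pttg1, and Cenpa and Cenpf overlapped between TAC and sham. A filter of 0.5 FPKM and 10 reads in at least 2 libraries decided entry. Of the 54 genes, 30 reached it in fewer than 2 sham libraries, so a high TAC level was in part a condition of their entry, and all 30 were higher. The other 24, past the filter in at least 2 sham libraries, counted 21 higher and 1 lower, with a median of 1.82. Because 0.5 FPKM is large beside the sham values, the fitted fold changes understate the ratios: the pooled median was 2.98 with limma-voom on reads and 2.49 with a pseudocount of 0.1.

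**Figure D1:**
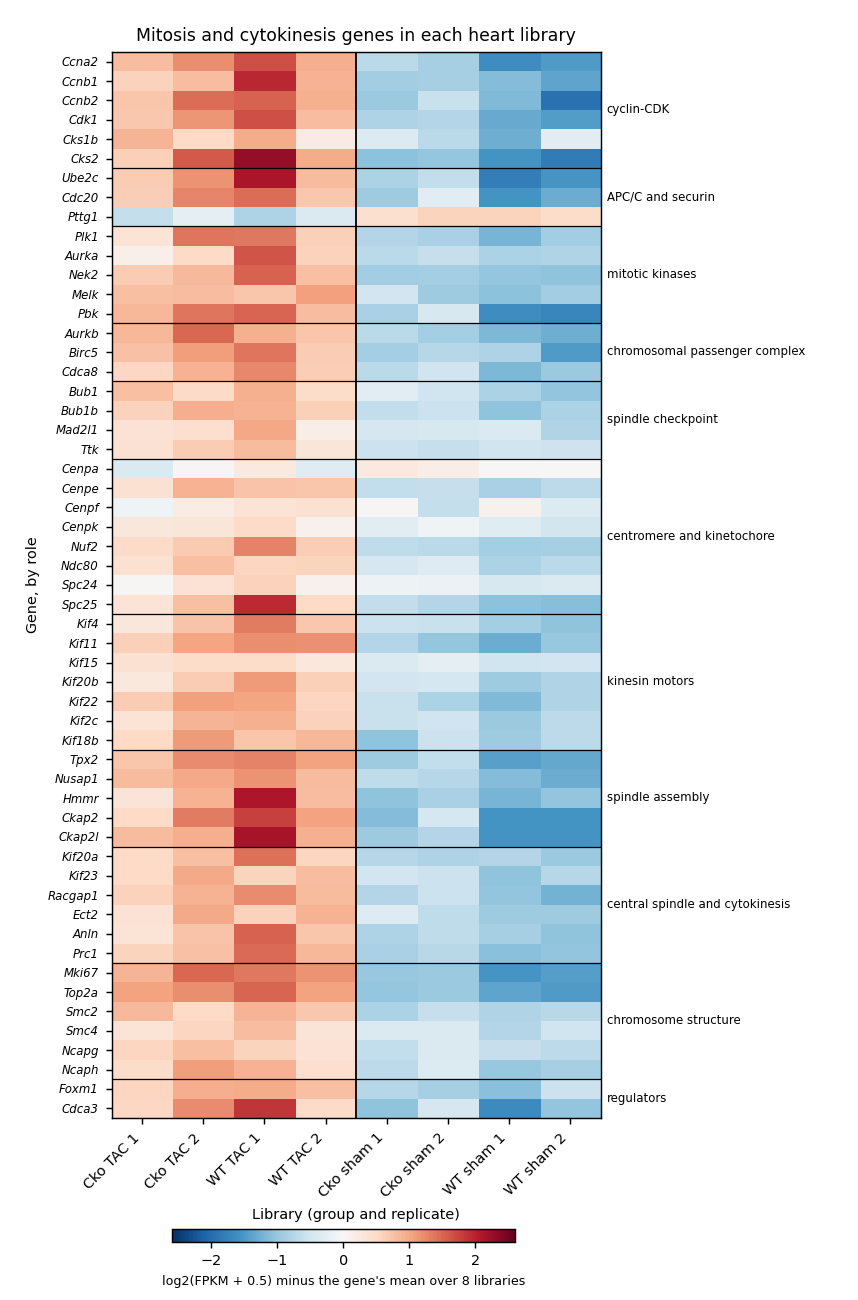
Level of the 55 genes in each of 8 heart libraries, as log2(FPKM + 0.5) minus the gene's mean over the libraries (colour), with genes in rows by role and libraries in columns. All TAC columns are red for 52 genes, while Pttg1 runs the other way and Cenpa and Cenpf show no block.

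Most of the genes were close to silent in sham hearts. The median over the 55 genes was 1.95 and 2.72 FPKM in Cko TAC and 3.53 and 2.15 FPKM in WT TAC, against 0.499 and 0.538 FPKM in Cko sham and 0.233 and 0.243 FPKM in WT sham. In TAC hearts 42 of the 55 were at 1 FPKM or more in all 4 libraries, whereas in sham hearts 43 were under 1 FPKM in all 4. No gene rested on fewer than 10 reads in TAC, against 6 and 3 genes in Cko sham and 21 and 19 in WT sham. The mean TAC level over the mean sham level had a median of 7.45 across the 55 genes and reached 27.7 for Hmmr, a microtubule-binding spindle protein. Summed over the 54 genes other than Pttg1, the level was 137 and 190 FPKM in Cko TAC and 254 and 150 FPKM in WT TAC, against 48.6 and 50.9 FPKM in Cko sham and 31.5 and 34.6 FPKM in WT sham.

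**Figure D2:**
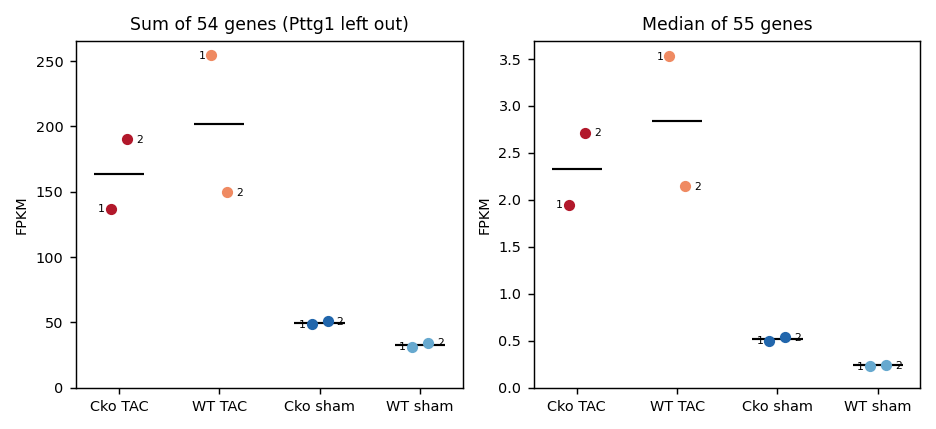
Summed FPKM of 54 genes without Pttg1 (left) and median FPKM of the 55 genes (right) in each library, with the replicate number beside each point and a bar at the group mean. The lowest TAC sum is 137 FPKM and the highest sham sum is 50.9 FPKM, and WT TAC replicate 1 stands highest at 254 FPKM.

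Cyclins, their kinase and its small subunits drive entry into mitosis. All 6 genes of this class rose under TAC, with log2 changes of 1.30 to 2.72. Cks2 (ENSMUSG00000062248, chr13:51645232-51650660, plus strand of GRCm38), a small subunit that docks substrates on the kinase, had the largest pooled change of all members. It was at 7.68 and 15.6 FPKM in Cko TAC and 25.6 and 9.91 FPKM in WT TAC, against 2.08 and 2.17 FPKM in Cko sham and 1.32 and 1.02 FPKM in WT sham. TAC and sham did not overlap, with a log2 change of 2.72 (SE 0.317, adjusted p = 0.00374). WT TAC replicate 1 was far above the other TAC libraries. A processed pseudogene, Gm15452, is identical to Cks2 over its aligned length. Gm15452 took 7 to 16 reads in TAC libraries and 2 to 7 in sham libraries, where Cks2 itself had 98 to 329 and 10 to 23 reads, so the sham level of Cks2 and the size of its change are uncertain. In all, 27 such copies of 16 of the genes were found by alignment, and 9 had a read in some library. Its relative Cks1b was already present in sham hearts. Its levels were 10.7 and 8.22 FPKM in Cko TAC and 11.3 and 6.49 FPKM in WT TAC, against 4.23 and 3.25 FPKM in Cko sham and 2.0 and 4.51 FPKM in WT sham. All TAC values were above all sham values (log2 change 1.30, SE 0.260, adjusted p = 0.0138), and the call was lost without Cko sham replicate 2 (adjusted p = 0.0539) or Cko TAC replicate 1 (adjusted p = 0.0510). Cdk1 (ENSMUSG00000019942, chr10:69335146-69352938, minus strand of GRCm38), the mitotic kinase itself, was at 3.04 and 4.33 FPKM in Cko TAC and 6.44 and 3.32 FPKM in WT TAC, against 0.754 and 0.781 FPKM in Cko sham and 0.385 and 0.300 FPKM in WT sham. Without overlap, Cdk1 changed by 2.16 (SE 0.203, adjusted p = 0.00227) on the log2 scale. Cyclin A2, needed for S phase and mitotic entry, followed the same order of groups. Ccna2 was at 3.51 and 4.79 FPKM in Cko TAC and 6.78 and 3.91 FPKM in WT TAC, against 0.911 and 0.752 FPKM in Cko sham and 0.241 and 0.328 FPKM in WT sham. The lowest TAC value was 3.85 times the highest sham value. Exosc9 on the opposite strand overlaps Ccna2 at 2.85 FPKM, above the sham levels of Ccna2, and whether reads were assigned by strand is not known. Ccnb1 and Ccnb2, the 2 cyclins B that activate Cdk1, had log2 changes of 2.14 and 2.31.

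The genes that act at the APC/C split. Ube2c, the E2 enzyme that supplies ubiquitin to the complex, was at 4.74 and 6.97 FPKM in Cko TAC and 13.9 and 5.36 FPKM in WT TAC, against 1.38 and 1.63 FPKM in Cko sham and 0.460 and 0.651 FPKM in WT sham. The 4 TAC libraries lay above the 4 sham libraries, with a log2 change of 2.38 (SE 0.276, adjusted p = 0.00373). The Ube2c copy AC151284.1 (93.7% identical) had 20 to 52 reads per library with overlapping TAC and sham ranges, and Ube2c, with 17 to 65 reads in sham, is uncertain to that extent. Cdc20, the activator that lets the APC/C recognise its targets, was at 6.59 and 10.4 FPKM in Cko TAC and 11.9 and 6.85 FPKM in WT TAC, against 1.89 and 3.18 FPKM in Cko sham and 1.05 and 1.36 FPKM in WT sham. TAC lay above sham throughout (log2 change 2.03, SE 0.233, adjusted p = 0.00362), although Elovl1 on the opposite strand overlaps Cdc20 at 11.7 FPKM and whether reads were assigned by strand is not known. Pttg1 (ENSMUSG00000020415, chr11:43420250-43426251, minus strand of GRCm38) encodes securin, which holds separase inactive until the APC/C destroys it. Pttg1 was at 23.3 and 30.1 FPKM in Cko TAC and 20.5 and 27.7 FPKM in WT TAC, against 48.6 and 54.4 FPKM in Cko sham and 53.9 and 50.5 FPKM in WT sham. It was the most abundant of the 55 genes in every library but WT TAC replicate 1, where Cks2 exceeded it, and it ran opposite to the 51 genes that rose. Every TAC value was below every sham value, and Pttg1 fell by 1.03 on the log2 scale (SE 0.131, adjusted p = 0.00423). The fall passed in every alternative tried for the pooled comparison.

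Mitotic kinases rose as a class, 5 of 5, with log2 changes of 1.44 to 2.29. Pbk, a kinase of the mitotic cell with several substrates, was at 3.82 and 5.78 FPKM in Cko TAC and 6.33 and 3.67 FPKM in WT TAC, against 0.838 and 1.28 FPKM in Cko sham and 0.275 and 0.236 FPKM in WT sham. Cko sham lay between WT sham and TAC, and the log2 change with TAC was 2.29 (SE 0.203, adjusted p = 0.00199). Aurka, the aurora kinase of the spindle poles, was at 2.04 and 2.81 FPKM in Cko TAC and 6.63 and 3.0 FPKM in WT TAC, against 0.928 and 1.03 FPKM in Cko sham and 0.806 and 0.835 FPKM in WT sham. Sham libraries were nearly alike and WT TAC replicate 1 was well above the other TAC libraries (log2 change 1.44, SE 0.222, adjusted p = 0.00670). Plk1, which drives mitotic entry, had a log2 change of 1.86, Nek2, which helps separate the centrosomes, one of 1.91, and Melk, a kinase of cycling cells, one of 1.70.

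The chromosomal passenger complex corrects faulty spindle attachments and later guides cytokinesis, and its 3 members here all rose. Birc5 (survivin), which brings the complex to centromeres, was at 2.44 and 3.20 FPKM in Cko TAC and 4.03 and 2.25 FPKM in WT TAC, against 0.441 and 0.538 FPKM in Cko sham and 0.496 and 0.124 FPKM in WT sham. TAC and sham were separate, by a log2 change of 1.95 (SE 0.217, adjusted p = 0.00322). Its kinase Aurkb was at 2.23 and 3.73 FPKM in Cko TAC and 2.32 and 1.98 FPKM in WT TAC, against 0.421 and 0.310 FPKM in Cko sham and 0.167 and 0.12 FPKM in WT sham. Here the highest library was Cko TAC replicate 2, and the log2 change was 2.01 (SE 0.165, adjusted p = 0.00185). Cdca8 (borealin), a scaffold of the complex, had a log2 fold change of 1.67.

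All 4 spindle checkpoint genes rose, by 1.0 to 1.53 on the log2 scale. Bub1b (BubR1), part of the complex that blocks Cdc20, was at 2.40 and 3.20 FPKM in Cko TAC and 3.07 and 2.47 FPKM in WT TAC, against 0.733 and 0.810 FPKM in Cko sham and 0.428 and 0.577 FPKM in WT sham. TAC and sham did not overlap (log2 change 1.53, SE 0.135, adjusted p = 0.00194). Mad2l1 (Mad2), which binds Cdc20 in the same complex, was at 1.44 and 1.52 FPKM in Cko TAC and 2.49 and 1.17 FPKM in WT TAC, against 0.599 and 0.615 FPKM in Cko sham and 0.646 and 0.370 FPKM in WT sham. The change was smaller, 1.00 (SE 0.200, adjusted p = 0.0134), and did not pass without Cko sham replicate 1 (adjusted p = 0.0517). Bub1 and Ttk, the checkpoint kinases at the kinetochore, had log2 changes of 1.33 and 1.1.

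Centromere and kinetochore genes did not all move. Of 8, 5 passed as higher, Cenpa and Cenpf did not pass, and Cenpk was too low to enter the fit. Cenpa (ENSMUSG00000029177, chr5:30666777-30674830, plus strand of GRCm38) encodes the histone H3 variant that marks centromeres. Its levels were 6.61 and 9.0 FPKM in Cko TAC and 10.6 and 6.98 FPKM in WT TAC, against 10.5 and 9.94 FPKM in Cko sham and 8.74 and 8.71 FPKM in WT sham. The 2 WT TAC values lay on either side of both WT sham values, and the log2 change was -0.20 (SE 0.149, adjusted p = 0.346). Its sign depended on the setting, with -0.02 in WT turning to 0.26 without WT TAC replicate 2. Cenpf, a large kinetochore protein of G2 and M phase, was at 0.991 and 1.34 FPKM in Cko TAC and 1.57 and 1.63 FPKM in WT TAC, against 1.15 and 0.550 FPKM in Cko sham and 1.25 and 0.758 FPKM in WT sham. The TAC and sham ranges overlapped (log2 change 0.42, SE 0.189, adjusted p = 0.142). Spc24, one arm of the Ndc80 complex that grips microtubules, was at 2.74 and 3.62 FPKM in Cko TAC and 4.35 and 2.93 FPKM in WT TAC, against 2.41 and 2.36 FPKM in Cko sham and 1.89 and 1.94 FPKM in WT sham. The groups did not overlap, but the gap between the lowest TAC and the highest sham value was only 1.14-fold, and the log2 change of 0.55 (SE 0.141, adjusted p = 0.0291) was lost in 8 of the other settings (adjusted p = 0.0623 to 0.114). Its partners Spc25, Nuf2 and Ndc80 had log2 changes of 1.8, 1.56 and 1.15, and the kinetochore motor Cenpe 1.38. Cenpk, a subunit of the constitutive centromere network, was at 0.353 and 0.365 FPKM in Cko TAC and 0.473 and 0.249 FPKM in WT TAC, against 0.0624 and 0.137 FPKM in Cko sham and 0.0538 and 0 FPKM in WT sham. These values rest on 23 to 46 reads in TAC libraries and 0 to 11 in sham libraries.

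Kinesin motors of the spindle rose in 7 of 7 cases, by 0.82 (Kif15) to 2.02 (Kif11) on the log2 scale. Kif11 (Eg5), which slides antiparallel microtubules to separate the poles, was at 2.15 and 3.01 FPKM in Cko TAC and 3.51 and 3.47 FPKM in WT TAC, against 0.515 and 0.366 FPKM in Cko sham and 0.204 and 0.380 FPKM in WT sham. Kif11 rose by 2.02 (SE 0.146, adjusted p = 0.00148) on the log2 scale, and its TAC libraries all lay above sham. Kif22, a chromosome-arm motor, was at 1.95 and 2.72 FPKM in Cko TAC and 2.66 and 1.78 FPKM in WT TAC, against 0.532 and 0.373 FPKM in Cko sham and 0.201 and 0.402 FPKM in WT sham. It changed by 1.66 (SE 0.173, adjusted p = 0.00288), without overlap. Kif4, whose value in this class was 1.54, is overlapped on the opposite strand by Pdzd11 at 8.68 FPKM. Across all classes, 6 members are overlapped on the opposite strand by a gene of at least 1 FPKM. They are Ccna2, Cdc20, Cdca8, Cenpk, Kif4 and Kif20a.

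Spindle assembly factors were among the strongest members, 5 of 5 higher with log2 changes of 1.91 to 2.40. Ckap2l, a spindle microtubule protein, was at 2.89 and 3.17 FPKM in Cko TAC and 7.94 and 3.12 FPKM in WT TAC, against 0.499 and 0.625 FPKM in Cko sham and 0.157 and 0.157 FPKM in WT sham. WT TAC replicate 1 was well above the other TAC libraries, and the log2 change was 2.40 (SE 0.247, adjusted p = 0.00288). Tpx2, which activates Aurka and seeds microtubules around chromosomes, was at 3.06 and 4.54 FPKM in Cko TAC and 4.76 and 3.94 FPKM in WT TAC, against 0.642 and 0.894 FPKM in Cko sham and 0.316 and 0.362 FPKM in WT sham. The 4 TAC values were close together (log2 change 2.14, SE 0.150, adjusted p = 0.00148). Nusap1, Hmmr and Ckap2, also microtubule-associated, completed the class.

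Genes of the central spindle and cytokinesis rose in 6 of 6 cases, by 1.43 to 1.84. Racgap1, which with Kif23 forms centralspindlin and recruits Ect2 to activate RhoA at the cleavage site, was at 2.24 and 2.87 FPKM in Cko TAC and 3.74 and 2.71 FPKM in WT TAC, against 0.572 and 0.729 FPKM in Cko sham and 0.388 and 0.269 FPKM in WT sham. All TAC values exceeded all sham values, with a log2 change of 1.78 (SE 0.146, adjusted p = 0.00185). Prc1, the bundler of the central spindle's antiparallel microtubules, was at 1.67 and 1.98 FPKM in Cko TAC and 3.53 and 2.15 FPKM in WT TAC, against 0.309 and 0.389 FPKM in Cko sham and 0.188 and 0.214 FPKM in WT sham. Again TAC and sham were separate, by 1.84 (SE 0.160, adjusted p = 0.00185) on the log2 scale. Kif23 and Ect2 each had a value of 1.43, Kif20a 1.65 and Anln, an actin-binding protein of the contractile ring, 1.68.

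Chromosome structure genes rose in 6 of 6 cases. Mki67 (ENSMUSG00000031004, chr7:135689784-135716361, minus strand of GRCm38), the Ki-67 protein that coats mitotic chromosomes and is widely used to stain cycling cells, was at 4.88 and 7.70 FPKM in Cko TAC and 7.01 and 6.0 FPKM in WT TAC, against 0.960 and 0.980 FPKM in Cko sham and 0.503 and 0.574 FPKM in WT sham. Every TAC value was above every sham value, and the log2 change was 2.46 (SE 0.148, adjusted p = 0.00148). In Cko it was the largest change of any member on log2(FPKM + 0.5), 2.18. Smc4, a condensin core subunit, was the third most abundant member in sham hearts. Smc4 was at 7.58 and 8.77 FPKM in Cko TAC and 10.6 and 7.50 FPKM in WT TAC, against 4.37 and 4.35 FPKM in Cko sham and 3.23 and 3.91 FPKM in WT sham. All TAC values were above sham, with a log2 change of 1.02 (SE 0.129, adjusted p = 0.00414). Top2a, the topoisomerase that untangles sister DNA, had 2.41, and the condensin subunits Smc2, Ncapg and Ncaph 1.48, 1.15 and 1.45.

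Both regulators passed as higher. Foxm1, the transcription factor that activates G2 and M genes together with the MuvB core, was at 1.77 and 2.49 FPKM in Cko TAC and 2.50 and 2.15 FPKM in WT TAC, against 0.420 and 0.352 FPKM in Cko sham and 0.232 and 0.551 FPKM in WT sham. The change was 1.62 (SE 0.164, adjusted p = 0.00272) on the log2 scale, with TAC above sham in every library. Cdca3, a factor that promotes mitotic entry through destruction of Wee1, was at 2.37 and 4.12 FPKM in Cko TAC and 6.64 and 2.27 FPKM in WT TAC, against 0.455 and 0.957 FPKM in Cko sham and 0.123 and 0.467 FPKM in WT sham. Spread within groups was wide, with WT TAC replicate 1 above the other 3 TAC libraries, and the log2 change was 2.07 (SE 0.338, adjusted p = 0.00786).

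**Figure D3:**
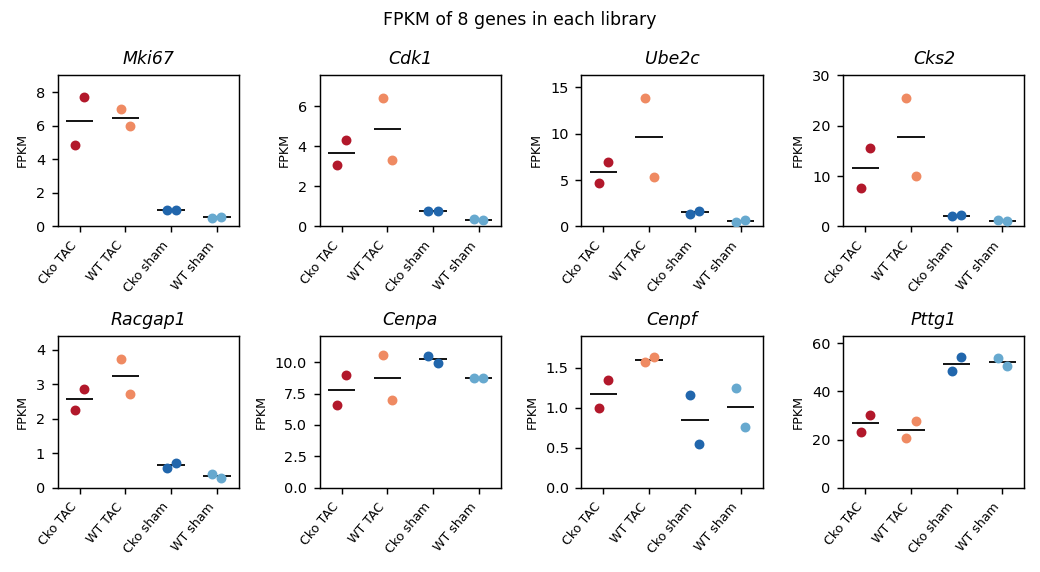
FPKM of 8 genes in each library, with both replicates as points and a bar at the group mean. Mki67, Cdk1, Ube2c, Cks2 and Racgap1 are near the bottom in sham and higher in TAC, Cenpa and Cenpf overlap, and Pttg1 lies at 20.5 to 30.1 FPKM in TAC and at 48.6 to 54.4 FPKM in sham.

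Most genes were higher under TAC within each genotype too, with different numbers of calls. In Cko, TAC against sham gave 22 of 54 genes higher and 0 lower, where 0.948% of all genes tested were higher and 0.546% lower. In WT, 50 were higher and 1, Pttg1, was lower, where 5.56% were higher and 7.65% lower. The median log2 change was 1.42 in Cko and 1.96 in WT, and that of all genes tested was at most 0.01 in size in either genotype. Both Cko TAC libraries were above both Cko sham libraries for 52 of 55 genes (28.0% of all genes tested) and below for 2, Pttg1 and Cenpa (28.3%). Both WT TAC libraries were above both WT sham libraries for 53 of 55 genes (31.3%) and below for 1 (30.9%). Cenpa, Cenpf and Cks1b did not pass in WT, Cks1b with an adjusted p of 0.0513. In Cko 51 of 54 had an unadjusted p under 0.05, where 21.8% of all genes tested did, and the log2 change of Pttg1 was -0.94 (adjusted p = 0.0535).

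The number of calls within a genotype turned on single libraries. In Cko the 22 calls became 0 without either Cko sham library, 1 without Cko TAC replicate 1 and 9 without Cko TAC replicate 2. Leaving out a WT library also moved the Cko count. All libraries share an estimate of the spread, and the set of genes tested changed too. The part of each in those moves was not tested. Fits of each genotype's libraries alone, over the same 13930 genes, gave 32 genes higher and 1 lower in Cko and 38 higher and 0 lower in WT. Among all genes tested these fits called 244 higher and 153 lower in Cko, and 156 higher and 116 lower in WT. In WT the median log2 change was 1.96 with all libraries, 1.69 without WT TAC replicate 1 and 1.94 without WT sham replicate 2. With WT TAC replicate 1 and WT sham replicate 1 both left out it was 1.60. The median of all genes tested was at most 0.02 in size in each of these fits. In WT 15 genes passed with each library left out in turn (Ccna2, Ccnb1, Cdk1, Ckap2l, Kif11, Melk, Mki67, Nek2, Nusap1, Pbk, Prc1, Racgap1, Top2a, Tpx2 and Ube2c). Over both genotypes the count was 50 to 52 with any single library left out.

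**Figure D4:**
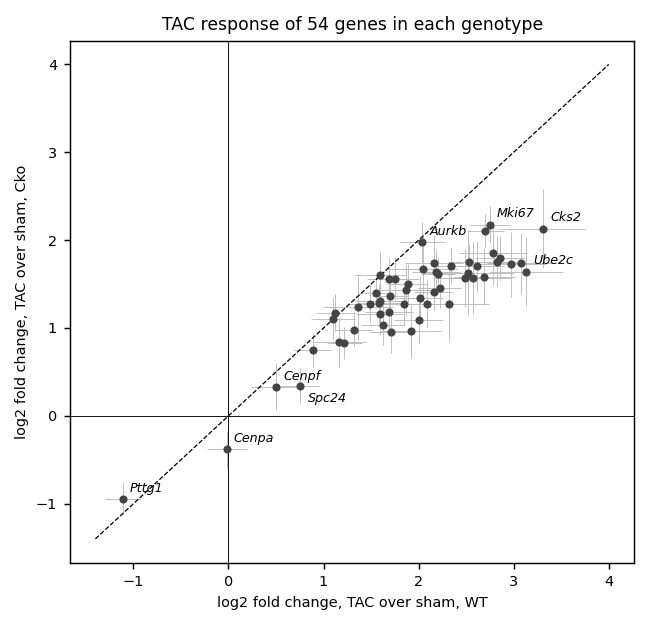
Log2 fold change of TAC over sham on log2(FPKM + 0.5) for 54 genes, in Cko (vertical) against WT (horizontal), with bars of 1 standard error and a dashed line of equal change. Most points lie below the line, with medians of 1.42 in Cko and 1.96 in WT, and no gene's difference between genotypes passed its test.

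The difference between the 2 TAC responses, Cko minus WT, was tested as an interaction. None of the 54 genes passed (limma, adjusted p of at least 0.911 for those named here), as against 0.00718% of all genes tested, and 10 had an unadjusted p under 0.05, as against 4.77%. limma-voom also called 0. The log2 difference was below 0 for 50 of 54 genes (49.2% of all genes tested), with a median of -0.56. The smallest p-values belonged to Ccna2 (-1.06, 95% interval -1.92 to -0.21), Ckap2l (-1.34, -2.49 to -0.18) and Ube2c (-1.49, -2.78 to -0.19), none of them passing (adjusted p = 0.911 each). Without WT TAC replicate 1 the median was -0.35, and without WT TAC replicate 2 it was -0.78.

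Under sham, most of these genes were at higher values in the libraries labelled Cko than in WT, and no gene passed the test. Of the 54 genes 0 passed (limma, and 0 by limma-voom), where 0.0215% of all genes tested did, and 7 had an unadjusted p under 0.05, where 7.67% of all genes did. The log2 fold change, Cko over WT, was above 0 for 51 of 54 genes (47.5% of all genes tested), with a median of 0.34. Both Cko sham libraries were above both WT sham libraries for 39 of 55 genes (19.3%) and below for 1 (20.3%). The median ratio of mean FPKM was 1.94, and the median log2 value depended on the pseudocount, 0.69 with 0.1 and 0.21 with 1. The 3 genes with the smallest p were Pbk (1.03, 95% interval 0.36 to 1.70, adjusted p = 0.475), Ccna2 (0.76, 0.16 to 1.37, adjusted p = 0.533) and Tpx2 (0.59, 0.09 to 1.08, adjusted p = 0.564). The summed level of 8 endothelial markers was 751 and 799 FPKM in Cko sham, and 421 and 614 FPKM in WT sham. Under TAC this sum was 704 and 867 FPKM in Cko, and 417 and 678 FPKM in WT. The part of the endothelial markers in the result was not tested.

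Under TAC the order of the genotypes was not stable. Of the 54 genes 0 passed (limma, and 0 by limma-voom), as did 0.0% of all genes tested, and 1 had an unadjusted p under 0.05, against 9.11%. The log2 fold change, Cko over WT, was below 0 for 43 of 54 genes (48.3% of all genes tested), with a median of -0.15. Without WT TAC replicate 1 it was above 0 for 30 of 53 genes, with a median of 0.06. No gene had both Cko TAC libraries above both WT TAC libraries (20.3% of all genes tested), and 5 had both below (19.4%). Aurka (-0.79, 95% interval -1.52 to -0.05, adjusted p = 0.532), Ccnb1 (-0.73, -1.49 to 0.04, adjusted p = 0.557) and Prc1 (-0.49, -1.02 to 0.04, adjusted p = 0.563) had the smallest p. Ccnb1 was at 1.61 and 1.94 FPKM in Cko TAC and 4.93 and 2.08 FPKM in WT TAC. Over both surgeries together 0 of 54 passed, against 0.00718% of all genes tested, and 2 had an unadjusted p under 0.05, against 11.4%. These were Pbk (0.50, 95% interval 0.02 to 0.97, adjusted p = 0.413) and Aurkb (0.39, 0.01 to 0.78, adjusted p = 0.427), followed by Nusap1 (0.21, -0.09 to 0.50, adjusted p = 0.583).

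**Figure D5:**
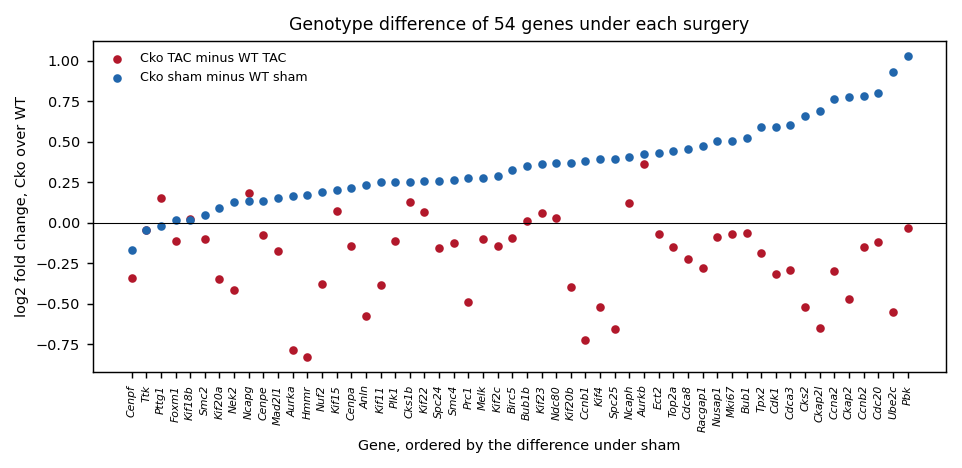
Log2 fold change of Cko over WT for 54 genes under TAC (red) and under sham (blue), ordered by the difference under sham. The blue points are above 0 for 51 genes and the red points below 0 for 43, and none passed its test.

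The TAC libraries differed among themselves in the whole set. WT TAC replicate 1 was above replicate 2 for 48 of 55 genes, where 49.8% of all genes tested were, with a median log2 difference of 0.50. Cko TAC replicate 2 was above replicate 1 for 52 of 55, where replicate 1 was above for 50.4% of all genes tested. Among the 4 TAC libraries WT TAC replicate 1 was highest for 39 genes, Cko TAC replicate 2 for 14 and WT TAC replicate 2 for 2, while Cko TAC replicate 1 was lowest for 36. In sham, Cko sham replicate 2 was highest for 33 and Cko sham replicate 1 for 17. WT TAC replicate 1 also stood apart in 8 markers of B and plasma cells, which summed to 308 FPKM there and to 12.0 to 35.9 FPKM in the other 7 libraries, with Igkc at 272 FPKM and Jchain at 22.5 FPKM. The 8 fibroblast markers summed to 896 FPKM in WT TAC replicate 1, 428 FPKM in WT TAC replicate 2, and 532 and 426 FPKM in Cko TAC. Endothelial (417 FPKM), mural (317 FPKM) and erythroid (97.1 FPKM) sums in WT TAC replicate 1 were the lowest of the TAC libraries. Its macrophage sum (642 FPKM) lay within the range of the others. The part of these markers in the result was not tested.

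Markers of other heart cells were counted in the pooled comparison, where 11.9% of all genes tested were higher and 13.5% lower. All 10 macrophage markers passed as higher under TAC over both genotypes, with a summed level of 619 to 991 FPKM in TAC and 399 to 471 FPKM in sham. Of 8 fibroblast markers 5 passed as higher, all matrix or matrix-associated genes, and 0 as lower, with sums of 426 to 896 FPKM in TAC and 191 to 326 FPKM in sham. Pdgfra and Tcf21, which define fibroblasts, did not pass (log2 changes of 0.29 and 0.28). The remaining fibroblast marker, also a matrix-associated gene, did not pass either and was the 1 of 8 with a log2 change below 0. Of 8 cardiomyocyte markers 6 passed as lower, with sums of 14124 to 17312 FPKM in TAC and 23036 to 24379 FPKM in sham. Endothelial sums were 417 to 867 FPKM in TAC and 421 to 799 FPKM in sham, and 1 of 8 passed, as lower. Mural sums were 317 to 472 FPKM in TAC and 279 to 550 FPKM in sham, with 1 marker higher and 1 lower of 7. Neutrophil sums were 3.45 to 47.4 FPKM in TAC and 6.12 to 44.6 FPKM in sham with Elane at 0. T-cell sums were at most 4.63 FPKM in any library. The filter left 3 of 6 neutrophil, 2 of 7 T-cell and 6 of 8 B-cell and plasma-cell markers in the fit, and none of these passed. Erythroid sums were 97.1 to 271 FPKM in TAC and 233 to 479 FPKM in sham, and 1 of 5 tested was lower. Markers of germ cells and thymocytes, which also divide, summed to at most 1.5 FPKM, and the 1 of 7 that was tested did not pass. The part of the macrophage, fibroblast and cardiomyocyte differences in the mitotic result was not tested.

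Other genes of the same machinery were counted from lists of the pathway, over both genotypes and at an adjusted p under 0.05. Of 49 further mitosis and cytokinesis genes 44 were tested, and 36 were higher and 0 lower (median log2 fold change 1.11). Of all genes tested, 11.9% were higher and 13.5% lower. The entry filter could be met in TAC libraries alone here too, and how many of the 44 entered in that way was not counted. Mxd3, a MAX-binding repressor transcribed in S and G2 phase, was at 2.61 and 3.74 FPKM in Cko TAC and 3.56 and 1.94 FPKM in WT TAC, against 0.551 and 0.607 FPKM in Cko sham and 0.0891 and 0.0893 FPKM in WT sham (2.08, adjusted p = 0.00212). Cep55, which recruits the abscission machinery to the midbody, was at 2.40 and 2.71 FPKM in Cko TAC and 2.63 and 2.45 FPKM in WT TAC, against 0.399 and 0.494 FPKM in Cko sham and 0.304 and 0.203 FPKM in WT sham. Both were higher in every TAC library, Cep55 by 1.85 (adjusted p = 0.00148), and Ccnf, a cyclin that acts as a ubiquitin ligase subunit, by 1.64 (adjusted p = 0.00148).

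Regulators of transcription and of entry were counted the same way, where 11.9% of all genes tested were higher and 13.5% lower. Among 19 genes of the E2F, RB and DREAM families 11 were higher and 1 lower (median 0.46). E2f1, an activator of S-phase genes, had 1.68 (adjusted p = 0.00487), Mybl2, the B-Myb partner of MuvB, 1.07 (0.00624) and Rbl1, the DREAM pocket protein p107, 0.81 (0.00540). The E2f1 level was 3.54 and 3.78 FPKM in Cko TAC and 5.66 and 2.41 FPKM in WT TAC, against 1.26 and 0.911 FPKM in Cko sham and 0.602 and 0.559 FPKM in WT sham. Of 14 genes that switch mitotic entry 5 were higher and 2 (14.3%) lower, the lower ones near the share of all genes. Cdc25c, a phosphatase that activates Cdk1, had 1.16 (adjusted p = 0.00741), Haspin, the histone H3 kinase that places the passenger complex, 1.14 (0.00505) and Mastl, the Greatwall kinase, 0.88 (0.00615). Of 8 cyclins and kinases of G1 phase 5 were higher and 0 lower, led by Ccne2 (0.96, adjusted p = 0.00826), Ccnd1 (1.11, 0.00911) and Cdk2 (0.43, 0.0215). Of 8 inhibitors of these kinases 2 were higher, Cdkn3 (1.30, adjusted p = 0.00462) and Cdkn2c (0.82, 0.0127), and Cdkn1c (p57) was lower (-0.99, 0.0151), which as 1 of 8 (12.5%) is also near the share of all genes. Cdkn1c was at 8.70 and 17.2 FPKM in Cko TAC and 5.19 and 7.09 FPKM in WT TAC, against 25.4 and 26.4 FPKM in Cko sham and 11.5 and 12.7 FPKM in WT sham.

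Machinery that all cells use was counted last, against the same 11.9% higher and 13.5% lower of all genes tested. Of 16 subunits and activators of the APC/C 2 (12.5%) were higher, which is near the share of all genes, and 4 (25%) lower (median log2 fold change 0.06), with Anapc13 at -0.90 (adjusted p = 0.00462), Anapc11 at -0.46 (0.0133) and Cdc16 at 0.33 (0.0285). Of 10 cohesin genes 1 was higher, near the share of all genes, and 0 lower. Stag2 passed (0.32, adjusted p = 0.0300), and Pds5a (0.29, 0.0609) and Wapl (0.25, 0.0686) did not. Of 15 cytokinesis genes present in all cells 7 were higher and 1 lower (median 0.28), including non-muscle myosin Myh9 (0.59, adjusted p = 0.00687), the septin Sept7 (0.37, 0.0219) and, lower, the abscission factor Chmp2a (-0.46, 0.0146).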

How the data were processed

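RNA was extracted with Trizol and libraries were made from 1 ug of total RNA with the NEBNext Ultra kit, per the labels. Per the submitters' processing notes, the tools were featureCounts 1.5.0-p3, Bowtie 0.12.2 and CASAVA 1.8, with mm10 and mm8 as builds; strand setting and scaling are not given in the sources used here. The authors deposited 1 table that is called a count table but holds FPKM. Multiplied by gene length, its values stepped in units of 1 read per library (100% within 0.01), which gave the reads. Coordinates equalled GENCODE's GRCm38 for 54 of the 55 genes.

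limma 3.58.1 (R 4.3.3) was fitted to log2(FPKM + 0.5) of all 8 libraries with 1 term per group, intensity trend and robust moderation (4 residual and a median of 3.54 prior degrees of freedom). The planned test assumed counts and was replaced for this unit. Genes needed at least 0.5 FPKM and 10 reads in at least 2 libraries, which left 13930. Benjamini-Hochberg adjustment ran over all of them, two-sided, with a threshold of 0.05. Replicates differed by more than counting noise (chi-square per degree of freedom 17.3 to 44.2). The fit was also run on simulated data in which only genes with many reads were changed, so that run does not cover members with few reads in sham. Precision is limited by 2 libraries per group.

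The 55 genes, lists and alternatives were chosen with earlier results of these data known. Named in full were the 2 members of each class with the highest mean level, members outside the fit, the largest and smallest TAC changes, the 3 smallest p-values of each genotype comparison and interaction, and the 3 smallest pooled p-values of each further list; the other members appear with counts and single values. Sequences are RefSeq's. Pseudogene copies came from minimap2 2.31-r1302 alignments of GENCODE transcripts.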

Additional observations from a re-analysis of the deposited data

How the results depend on the processing

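The pooled TAC count of 52 genes was 49 to 53 over 20 settings, lowest with a filter of at least 1 FPKM in 2 libraries, which left 51 genes in the fit, and 46 genes passed in every one. With single libraries left out, the count ranged from 0 to 40 in Cko, from 16 to 51 in WT and from 50 to 52 over both genotypes. With WT TAC replicate 1 and WT sham replicate 1 both left out it was 35 in Cko and 0 in WT. The Cko count was 0 with no filter on low values, 40 when scaled to the library total and 34 with protein-coding genes alone; the cause was not tested. Scaling to the library total moved the median log2 change of all genes over both genotypes to 0.19 and the split of pooled calls among all genes to 3679 higher and 971 lower, against 1654 higher and 1880 lower. It turned Cenpa to 0.20 in WT and 0.00793 over both genotypes, and with single libraries left out Cenpa in WT ranged from -0.30 to 0.26, the highest without WT TAC replicate 2. Genotype and interaction counts were 0 in every setting run. The differences between replicates 1 and 2 had correlations of 0.0256 to 0.247 between groups. Whether the replicate numbers mark shared batches is not known. A replicate block gave 22 calls in Cko, 50 in WT and 52 over both. Counting depth limits the sham values: in WT sham 21 and 19 of the genes had fewer than 10 reads.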
